A study of Mus musculus with 15 samples.

Results

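The striatum of KI-96 mice was compared with that of E1 mice, using the 4 libraries of each genotype, 8 of the 15 libraries of the series, and all genes measured in them. Each library holds RNA from the whole striatum of 1 mouse, all of them 6 months old, with no treatment named in the labels. KI-96 and E1 are genotype names that the labels leave undescribed, so neither the allele of either group nor what both groups share is stated here. The study's title concerns repeat-associated translation and its toxicity in Huntington's disease knock-in animals, and setting the 2 mutant genotypes side by side asks which genes differ between them, without WT mice in the main test. The 7 WT libraries entered its scaling and an alternative fit to all 15 libraries, and their ranges are given beside some values as a description. Xist, the RNA that coats the inactive X of females, was at 890 to 1623 CPM in the 8 compared libraries and at 1064 CPM in 1 WT library, but at 0.269 to 2.99 CPM in the other 6 WT libraries. Those 6 held 2680 to 5755 counts of 4 Y-linked genes, so for a level above or below a WT range genotype and sex cannot be told apart.

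The striatum is the input station of the basal ganglia and consists mainly of spiny projection neurons, which carry either the dopamine receptor Drd1 or Drd2. Huntington's disease is caused by an expanded CAG repeat in the first exon of Htt, and these neurons are the ones it affects most. Cortical and thalamic input together with dopamine switches on immediate early genes in spiny neurons through calcium, cyclic AMP and the kinase ERK. These genes encode transcription factors such as Fos, Egr and Nr4a proteins, synaptic effectors such as Arc, and phosphatases that switch ERK off again.

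In short, KI-96 and E1 striatum did not differ in any single gene past the threshold of edgeR's quasi-likelihood test, and the 10 named genes with the smallest p among those lower in KI-96 included 6 immediate early or ERK feedback genes. All 22 immediate early transcription factor genes and all 19 effector genes had lower fitted levels in KI-96. Without E1 libraries 2 and 3, which were rich in cortical markers, most but not all members of each list stayed negative. All 17 genes of motile cilia had negative fold changes too, though E1 library 2 lay within the KI-96 range, while spiny neuron markers had a median difference close to 0. Interferon response genes were high in 1 E1 library and cortical neuron markers in 2, and the fold changes of these 2 lists turned when those libraries were left out.

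E1 libraries held 18199927 to 19533231 counts and KI-96 libraries 14678565 to 23373551, of which mitochondrial genes took 3.62% to 6.37%. None of the 12 pairs of libraries inside the groups was alike within sampling noise, and these pairs had Spearman correlations of 0.961 to 0.987. Levels below are CPM (counts scaled to the normalised library total). The defining markers of spiny neurons were abundant in all 8 libraries: Ppp1r1b, the gene of the dopamine-controlled phosphatase inhibitor DARPP-32, ran from 892 to 2444 CPM. KI-96 library 3 stood apart on principal component 1 (31.4% of the variance), at 73.9 against -22.1 to 19.8 for the other 7. It had the lowest Ppp1r1b, and its nuclear RNA Malat1 was at 4134 CPM against 1680 to 2574. E1 libraries 2 and 3 stood apart on the second component (18.7% of the variance), both at -36.8, and held the most cortical marker RNA. Uty, Ddx3y, Eif2s3y and Kdm5d, all Y-linked, together had at most 2 counts in any of the 8 libraries. Gm47283, a predicted gene that is also annotated on chromosome Y (90784738 to 90816464), was picked with its values in view. It was at 17.04 to 26.1 CPM in E1 and 3.54 to 14.97 CPM in KI-96 (DESeq2 adjusted p 0.0306). Whether its reads came from chromosome Y was not tested.

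Htt (ENSMUSG00000029104.15, chromosome 5, 34761740 to 34912534, build GRCm38) encodes huntingtin, a large scaffold protein of vesicle transport. Its level was 139.5, 148, 135 and 144 CPM in E1 libraries 1 to 4 and 178, 185, 241 and 144 CPM in KI-96 libraries 1 to 4. KI-96 libraries 1 to 3 lay above all 4 E1 libraries, and KI-96 library 4 lay inside the E1 range, so the groups overlapped. The means were 142 ± 5.66 CPM (SD, n = 4) in E1 and 187 ± 40.4 CPM (n = 4) in KI-96, a log2 fold change of 0.40 (SE 0.15), with a 95% interval of 0.06 to 0.74. The edgeR adjusted p was 0.538 and the exact permutation p was 0.0857, two-sided, where the smallest that 70 splits can give is 0.0286. The 7 WT libraries, 6 of them with almost no Xist, ran from 169 to 196 CPM, above every E1 library. Counts per gene do not separate the 2 alleles, and a read count over the whole gene does not show the repeat length.

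**Figure D1:**
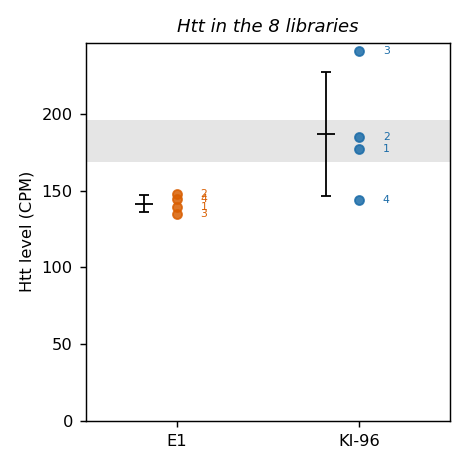
Level of Htt (vertical axis, CPM, from 0) in the 4 E1 and the 4 KI-96 libraries, each point a library with its number, the horizontal bar and whisker the mean and SD, and the grey band the range of the 7 WT libraries. E1 libraries lie between 135 and 148 CPM, and KI-96 libraries between 144 and 241 CPM with library 3 highest.

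Over the whole table, 0 of 17157 genes (0%) passed an adjusted p of 0.05 in edgeR in either direction, and the smallest adjusted p was 0.538. An unadjusted p under 0.05 was reached by 837 genes higher in KI-96 (4.88% of those tested) and 710 lower (4.14%), 1547 in all where 858 are expected on average if no gene differs. The 4 KI-96 libraries lay wholly above the 4 E1 libraries in 404 genes (2.35%) and wholly below in 428 (2.49%). Fold changes were positive for 49.1% of genes and negative for 50.9%, with a median of -0.01. DESeq2 called 14 genes higher (0.0818% of 17125) and 27 lower (0.158%), limma-voom called 0 and 0 with 1501 genes at an unadjusted p under 0.05, and edgeR fitted to all 15 libraries called 0 and 0. With 1 library left out in turn, edgeR called 10 genes higher without E1 library 4, 1 higher without KI-96 library 2 and 0 in the other cases, and 0 lower throughout. All DESeq2 adjusted p-values below come from that alternative, not from the main test.

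Leaving out predicted genes and those averaging under 1 CPM, the 10 lower in KI-96 with the smallest p were Arc, Coq10b, Nr4a3, Nr4a1, Fos, Dlx1, Junb, Catip, Plk5 and Tiparp. The 10 higher were Fzd10, Shc3, Cracr2a, Pcdhgb1, Klhl33, Hipk2, Polr2a, Slc29a3, Pcdhga2 and Myh11. Each of the 20 had an edgeR adjusted p of 0.538, and in each the 2 groups did not overlap. Of the 10 lower genes 6 belong to the lists of immediate early and ERK feedback genes, and of the 10 higher genes 0 do. Of the 27 genes that DESeq2 called lower, 8 belong to these lists.

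**Figure D2:**
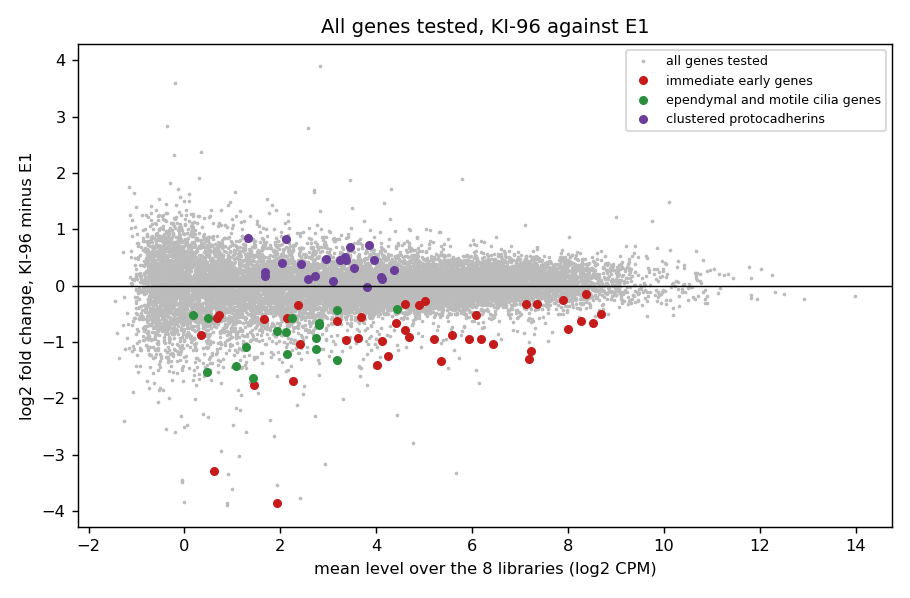
Log2 fold change of KI-96 minus E1 (vertical axis) against the mean level over the 8 libraries (horizontal axis, log2 CPM) for the 17157 genes tested, in grey, with 3 groups of listed genes in colour. The 41 immediate early genes and the 17 genes of ependyma and motile cilia lie below 0, and 20 of 21 clustered protocadherins lie above it.

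The promoters of 4 of the lower genes are shown: the immediate early genes Fos, Nr4a1 and Junb, and Coq10b, whose protein is mitochondrial. Each promoter holds the core of the cyclic AMP response element (CRE), the site of the activity-dependent factor CREB. They were chosen for holding it. The 200 bases before the annotated start are printed 5′ to 3′ on the gene's strand, from RefSeq on GRCm38.p6, with each core of the element (TGACG, or CGTCA on the other strand) in capitals. Fos lies on the plus strand at chr12:85473690-85473889, Nr4a1 on the plus strand at chr15:101266646-101266845, Junb on the minus strand at chr8:84978749-84978948 and Coq10b on the plus strand at chr1:55052570-55052769. The Nr4a1 window is intronic in a longer transcript of the same gene.
Fos: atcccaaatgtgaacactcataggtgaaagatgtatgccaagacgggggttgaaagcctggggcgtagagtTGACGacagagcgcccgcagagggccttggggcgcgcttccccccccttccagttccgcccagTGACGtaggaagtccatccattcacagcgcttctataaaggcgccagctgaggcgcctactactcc
Nr4a1: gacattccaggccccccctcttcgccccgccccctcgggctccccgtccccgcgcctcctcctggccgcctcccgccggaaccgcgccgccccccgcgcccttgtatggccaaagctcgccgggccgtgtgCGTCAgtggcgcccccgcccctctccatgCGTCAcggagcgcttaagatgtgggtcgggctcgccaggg
Junb: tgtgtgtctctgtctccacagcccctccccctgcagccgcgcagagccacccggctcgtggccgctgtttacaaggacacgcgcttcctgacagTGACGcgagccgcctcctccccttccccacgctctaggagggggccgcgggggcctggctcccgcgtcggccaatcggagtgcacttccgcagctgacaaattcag
Coq10b: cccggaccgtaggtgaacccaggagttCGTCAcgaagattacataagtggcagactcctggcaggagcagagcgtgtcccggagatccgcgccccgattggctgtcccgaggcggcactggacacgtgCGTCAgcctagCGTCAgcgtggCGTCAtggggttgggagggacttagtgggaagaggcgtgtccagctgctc
The Fos window held 2 cores, that of Nr4a1 2, that of Junb 1 and that of Coq10b 4. Within 250 bases before the start, 0 cores were found for Dlx1, Catip, Plk5 and Tiparp of the same 10 lower genes, and 0 for Dusp6. Nr4a3, also among the 10, held 4, and Arc had no promoter to search for any of these elements. Of 58 immediate early and ERK feedback genes listed, 44 had a promoter in the table. Within 250 bases before a start, on both strands, the core was found in 26 of the 44 (59.1%) and in 19.79% of all 27025 genes with a promoter there. The full element TGACGTCA, which holds a core on each strand, was found in 6 (Btg2, Dusp1, Errfi1, Maff, Plk2 and Scg2; 13.6%) against 1.77% of all genes. The CArG box, the site of serum response factor, was found in 2 (Dusp5 and Egr2) against 1.62%. A gene counted as holding an element if any of its annotated starts did, so genes with more starts had more windows to match. The 27025 genes had 32851 promoters in all, and the shares were not matched for the number of starts. A match of letters is a description of the window and not a measured site.

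Among the transcription factors, Fos, which pairs with Jun proteins to form AP-1, was at 24.9, 18, 34.9 and 30.9 CPM in E1 libraries 1 to 4 and 7.70, 8.94, 7.85 and 16.3 CPM in KI-96 libraries 1 to 4. All KI-96 libraries were below all E1 libraries, and KI-96 library 4 came nearest to them. The log2 fold change was -1.41 (SE 0.27), with a DESeq2 adjusted p of 0.0025, and WT libraries ran from 5.46 to 29.6 CPM. Junb, a Jun protein of the same complex, was at 128, 85.8, 174 and 119 CPM in E1 libraries 1 to 4 and 59.8, 70.6, 48.5 and 68.4 CPM in KI-96 libraries 1 to 4. The highest KI-96 library lay below the lowest E1 library, library 2, and E1 library 3 was highest. The log2 fold change of Junb was -1.03 (SE 0.20), with a DESeq2 adjusted p of 0.00514.

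Nr4a1, an orphan nuclear receptor that dopamine and glutamate input induce in spiny neurons, was at 264, 153, 281 and 222 CPM in E1 libraries 1 to 4 and 94.95, 133, 71.6 and 112 CPM in KI-96 libraries 1 to 4. The groups did not overlap, with E1 library 2 the lowest of its group and KI-96 library 3 the lowest of all. Its log2 fold change was -1.16 (SE 0.22), with a DESeq2 adjusted p of 0.00196. Nr4a3, a receptor of the same family, was at 67.2, 41.7, 99.9 and 56.6 CPM in E1 libraries 1 to 4 and 26.7, 33.1, 24.1 and 21.8 CPM in KI-96 libraries 1 to 4. It did not overlap either, with a log2 fold change of -1.33 (SE 0.24) and a DESeq2 adjusted p of 0.00122. WT libraries reached into both groups for these genes, from 63.3 to 224 CPM for Nr4a1 and from 10.5 to 63.4 CPM for Nr4a3.

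The other transcription factors were lower on average too, with overlapping groups, except Egr4. Egr4, a zinc finger factor, was at 138, 82.8, 109 and 92.05 CPM in E1 libraries 1 to 4 and 48.96, 81.4, 28.5 and 61.5 CPM in KI-96 libraries 1 to 4, with a log2 fold change of -0.94 (SE 0.28). The lowest E1 library, library 2, was just above the highest KI-96 library, also library 2. Egr1, the most studied member of that family, ran from 321 to 613 CPM in E1 and 213 to 440.2 CPM in KI-96 and had a log2 fold change of -0.68 (SE 0.25). Egr2 had a log2 fold change of -1.25 (SE 0.34), Egr3 -0.77 (SE 0.24), the AP-1 subunit Fosl2 -0.94 (SE 0.24) and the activity-specific factor Npas4 -0.91 (SE 0.28). Of the 22 tested, 22 had negative fold changes (median -0.90, range -3.86 to -0.33; median of all genes -0.01), 16 had an unadjusted p under 0.05, 5 did not overlap, DESeq2 called 4 and edgeR 0. Among all genes tested, the shares lower in KI-96 were 4.14% at that p, 2.49% without overlap and 0.158% by DESeq2. Nr4a2 gave the most negative value (log2 fold change -3.86, SE 1.30). It was at 80.8 and 28.1 CPM in E1 libraries 2 and 3, the 2 rich in cortical markers, and at 0.972 to 2.99 CPM in the other 6 libraries.

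Among the effectors, Arc, which regulates AMPA receptors at synapses, had the smallest p of all genes tested (ENSMUSG00000022602.14, chromosome 15, 74669083 to 74672570, unadjusted p = 0.000109). Its level was 234, 221, 283 and 203 CPM in E1 libraries 1 to 4 and 66.5, 132, 70.9 and 112 CPM in KI-96 libraries 1 to 4. Every KI-96 library was at 132 CPM or below and every E1 library at 203 CPM or above. The log2 fold change was -1.30 (SE 0.22), with a DESeq2 adjusted p of 0.000257, and the 7 WT libraries ran from 95.1 to 233 CPM. Tiparp, an ADP-ribosyltransferase induced by activity and by the aryl hydrocarbon receptor, was at 33.6, 22.3, 39.3 and 32.7 CPM in E1 libraries 1 to 4 and 20.1, 18.5, 17.6 and 17.8 CPM in KI-96 libraries 1 to 4. The KI-96 libraries lay close together below all E1 libraries, with a log2 fold change of -0.79 (SE 0.17) and a DESeq2 adjusted p of 0.0212. Ccn1, a secreted matrix protein, also did not overlap, at 4.99 to 9.67 CPM in E1 and 2.40 to 4.29 CPM in KI-96 (log2 fold change -1.04, SE 0.27).

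The remaining effectors overlapped between groups. Trib1, a pseudokinase, showed a log2 fold change of -0.92 (SE 0.25), and Homer1, a scaffold of the postsynaptic density, -0.62 (SE 0.24). Bdnf, a growth factor that cortical axons supply to the striatum, was at 14.8 and 15.4 CPM in E1 libraries 2 and 3 and at 0.218 to 1.54 CPM in the other 6. Of the 19 effectors 19 had negative fold changes (median -0.62) and 8 had an unadjusted p under 0.05. Of these 19, 3 did not overlap, DESeq2 called 2 and edgeR 0. The shares of all genes lower in KI-96 were 4.14% at an unadjusted p under 0.05, 2.49% without overlap and 0.158% by DESeq2.

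**Figure D3:**
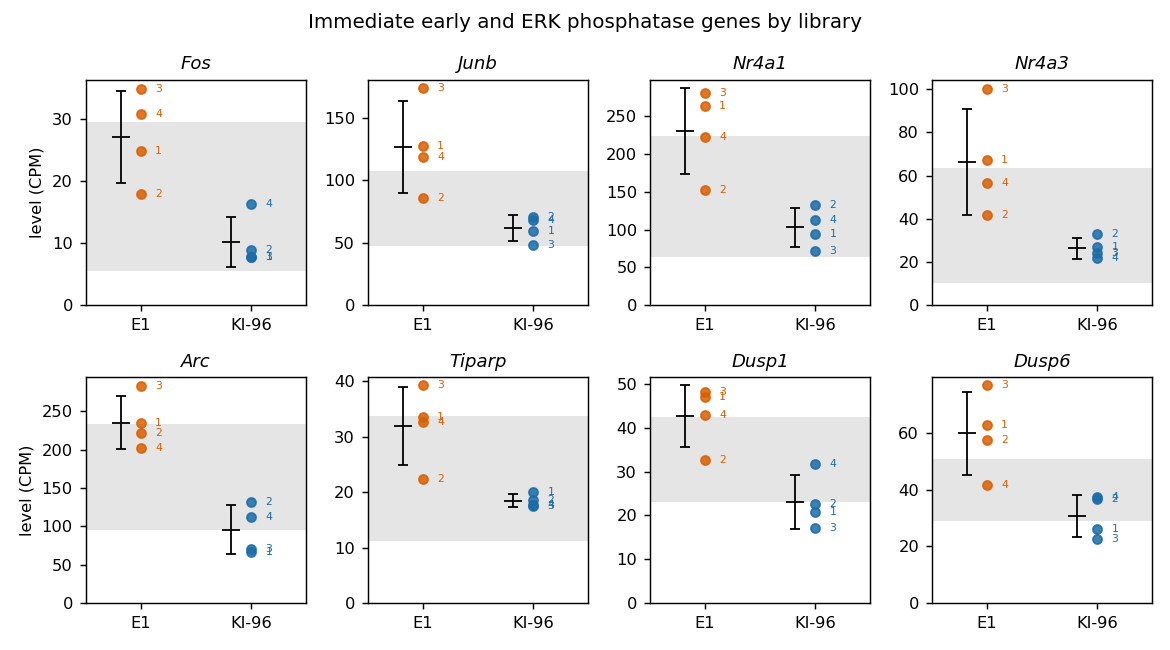
Level (vertical axis, CPM, from 0) of 8 immediate early and ERK phosphatase genes in the E1 and KI-96 libraries, each point a library with its number, the bar and whisker the mean and SD, and the grey band the range of the 7 WT libraries. In each of the 8 genes the KI-96 libraries lie below the E1 libraries, and the WT range reaches into or over the gap between them.

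The ERK feedback list holds phosphatases and inhibitors that ERK signalling induces and that damp it. Dusp6, the cytoplasmic ERK phosphatase, was at 63.04, 57.7, 76.96 and 41.8 CPM in E1 libraries 1 to 4 and 26.01, 36.5, 22.7 and 37.3 CPM in KI-96 libraries 1 to 4. E1 library 4 was the lowest of its group and still above KI-96 library 4, with a log2 fold change of -0.97 (SE 0.21) and a DESeq2 adjusted p of 0.0233. Dusp1, a nuclear phosphatase of the mitogen-activated kinases, was at 47.2, 32.8, 48.3 and 43.1 CPM in E1 libraries 1 to 4 and 20.7, 22.5, 17.2 and 31.9 CPM in KI-96 libraries 1 to 4. The nearest pair was E1 library 2 and KI-96 library 4, with a log2 fold change of -0.89 (SE 0.19) and a DESeq2 adjusted p of 0.0238. Dusp5, the nuclear ERK phosphatase, ran from 14.7 to 20.8 CPM in E1 and 9.37 to 11.8 CPM in KI-96 (log2 fold change -0.60, SE 0.16), with WT at 8.32 to 10.5 CPM. KI-96 library 1 lay within that WT range, KI-96 libraries 2 to 4 above it, and all 4 E1 libraries above every KI-96 library.

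Phlda1, a pleckstrin-domain protein induced by growth factors, did not overlap either, with a log2 fold change of -0.57 (SE 0.17). Of the 17 genes 14 had negative fold changes (median -0.21), 6 had an unadjusted p under 0.05 and 5 did not overlap. DESeq2 called 2 and edgeR 0. The shares of all genes lower in KI-96 were 4.14% at that p, 2.49% without overlap and 0.158% by DESeq2. The Sprouty and Spred inhibitors of the pathway had log2 fold changes between -0.21 for Spry4 and 0.09 for Spred3; both were named with their values in view. The list's median was -0.09 without E1 library 3, -0.34 without E1 library 4 and -0.32 without KI-96 library 3.

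The fits of these lists were repeated without libraries rich in cortical markers, and then also without a library that stood apart. Whether cortical tissue or that library accounts for their fold changes was not tested. The mean log2 CPM of the 22 transcription factors was highest in E1 library 3, at 5.53, and lowest in KI-96 library 3, at 3.89, and E1 as a whole ran from 4.75 to 5.53 against 3.89 to 4.51 in KI-96 and 3.96 to 4.70 in WT. The summed CPM of the 18 cortical excitatory neuron markers was 367 to 2233 in E1 against 417 to 523 in KI-96, with 0 of the 18 at 0 in any library. Without E1 libraries 2 and 3 the median of the transcription factors was -0.76 with 20 of 22 negative, that of the effectors -0.40 with 13 of 19, and that of the ERK feedback genes -0.12 with 12 of 17. Without KI-96 library 3 as well, the medians were -0.62, -0.29 and -0.14. Under that setting Fos had a log2 fold change of -1.33, Arc -1.07, Nr4a1 -1.10 and Junb -0.90.

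The other lower genes have different roles. Coq10b, a mitochondrial protein that binds coenzyme Q, was at 22.6, 21.03, 23.7 and 18.4 CPM in E1 libraries 1 to 4 and 13.4, 10.6, 11.6 and 13.3 CPM in KI-96 libraries 1 to 4. KI-96 reached 13.4 CPM at most and E1 18.4 CPM at least, with WT at 15.03 to 20.4 CPM (log2 fold change -0.81, SE 0.14, DESeq2 adjusted p 0.00122). Dlx1, a homeobox factor of forebrain inhibitory neurons and their precursors, was at 40.9, 27.8, 50.03 and 25.6 CPM in E1 libraries 1 to 4 and 16.4, 19.3, 14.4 and 18.2 CPM in KI-96 libraries 1 to 4. The KI-96 libraries also lay below the WT range of 20.03 to 29.1 CPM, and the log2 fold change against E1 was -1.08 (SE 0.21). Plk5, a polo-like kinase of neurons and glia, was at 44.98, 24.7, 30.4 and 33.2 CPM in E1 libraries 1 to 4 and 14.7, 13.7, 10.4 and 21.4 CPM in KI-96 libraries 1 to 4 (log2 fold change -1.14, SE 0.24). E1 library 1 was highest, and KI-96 library 4 lay within the WT range. Catip, a regulator of actin in ciliogenesis, was at 2.86 to 4.61 CPM in E1 and 1.02 to 1.95 CPM in KI-96 (log2 fold change -1.45, SE 0.30).

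The higher genes have varied roles. Fzd10, a Wnt receptor, was at 0.307, 0.729, 0.425 and 0.786 CPM in E1 libraries 1 to 4 and 1.53, 1.12, 3.98 and 5.03 CPM in KI-96 libraries 1 to 4. It was low throughout, and KI-96 libraries 3 and 4 gave the highest levels (log2 fold change 2.38, SE 0.53, DESeq2 adjusted p 0.0202). Shc3, the neuronal adaptor of tyrosine kinase receptors, was at 43.6, 53.9, 69.1 and 44.4 CPM in E1 libraries 1 to 4 and 87.2, 88.5, 100.2 and 73.96 CPM in KI-96 libraries 1 to 4. The lowest KI-96 library was just above the highest E1 library, E1 library 3 (log2 fold change 0.73, SE 0.16, DESeq2 adjusted p 0.0412). Hipk2, a stress-activated nuclear kinase, was at 74.4, 77.2, 99.5 and 141 CPM in E1 libraries 1 to 4 and 214, 183, 285 and 142 CPM in KI-96 libraries 1 to 4. The gap between the groups was narrow, 141 CPM in E1 library 4 against 142 CPM in KI-96 library 4, with a log2 fold change of 1.07 (SE 0.25).

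Polr2a, the largest subunit of RNA polymerase II, was at 63.7, 60.01, 82.7 and 72.3 CPM in E1 libraries 1 to 4 and 99.96, 104, 108 and 92 CPM in KI-96 libraries 1 to 4. The KI-96 libraries lay above the E1 libraries and above the WT range of 66.3 to 89.8 CPM (log2 fold change 0.54, SE 0.13, DESeq2 adjusted p 0.048). Myh11, the smooth muscle myosin of arterial walls, was at 2.81, 3.48, 1.11 and 2.15 CPM in E1 libraries 1 to 4 and 6.68, 6.57, 6.87 and 4.28 CPM in KI-96 libraries 1 to 4. KI-96 libraries 1 to 3 exceeded the WT range of 2.35 to 5.62 CPM, and the log2 fold change was 1.35 (SE 0.32). Cracr2a, a calcium sensor of store-operated entry, was at 1.33 to 2.25 CPM in E1 and 3.02 to 5.01 CPM in KI-96. Klhl33, a kelch protein, showed a log2 fold change of 1.15 (SE 0.26), and Slc29a3, a lysosomal nucleoside transporter, 0.67 (SE 0.16). The protocadherins Pcdhgb1 and Pcdhga2, adhesion molecules that give neurons their surface identity, had log2 fold changes of 0.94 (SE 0.21) and 1.02 (SE 0.24).

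The 35 spiny neuron markers had a median of -0.06, with 14 positive and 21 negative, 1 higher and 2 lower at an unadjusted p under 0.05, and 0 without overlap. The median was 0.12 without E1 library 1, 0.06 without KI-96 library 4, -0.09 without E1 library 3, -0.13 without E1 library 4 and -0.19 without KI-96 library 2. Drd1 was at 336, 245, 249 and 226 CPM in E1 libraries 1 to 4 and 258, 241, 211 and 161 CPM in KI-96 libraries 1 to 4 (log2 fold change -0.28, SE 0.18). KI-96 library 4 was lowest and E1 library 1 highest, and the other 6 libraries ran from 211 to 258 CPM. Drd2 was at 359, 250.5, 228 and 228 CPM in E1 libraries 1 to 4 and 263, 357, 211 and 216 CPM in KI-96 libraries 1 to 4 (log2 fold change -0.03, SE 0.21), with both groups spanning the same range. Penk, the enkephalin precursor of Drd2 neurons, ran from 842 to 1306 CPM in E1 and 337 to 993 CPM in KI-96 (log2 fold change -0.54, SE 0.29), with the lowest value in KI-96 library 3. Since whole tissue was measured, fewer cells of a type and less RNA per cell cannot be told apart here or in the lists below.

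The markers of direct pathway neurons had a median of 0.05 (6 of 11 positive) and those of indirect pathway neurons -0.02 (4 of 10 positive). Zfp521, a zinc finger factor of the direct pathway list, did not overlap, at 17.8, 14.8, 18.3 and 21.96 CPM in E1 libraries 1 to 4 and 30.9, 22.2, 26.9 and 23.9 CPM in KI-96 libraries 1 to 4 (log2 fold change 0.51, SE 0.16). The lowest KI-96 library, library 2, was just above the highest E1 library, library 4. Ptprm, an adhesion phosphatase of the indirect pathway list, did not overlap either, at 36.4 to 42.2 CPM in E1 and 44.2 to 53.9 CPM in KI-96 (log2 fold change 0.36, SE 0.11). Arpp21 and Arpp19, cyclic AMP-regulated phosphoproteins, had log2 fold changes of -0.52 (SE 0.22) and -0.51 (SE 0.19), and Pde2a, a cyclic nucleotide phosphodiesterase, had a log2 fold change of 0.61 (SE 0.22). Prkcd, a kinase abundant in thalamus, was at 130.2 CPM in KI-96 library 4 and 39.8 CPM in KI-96 library 3, and at 8.45 to 22.3 CPM in the other 6 libraries. The 29 spiny neuron genes known to be low in Huntington models had a median of -0.19 (23 negative), and Wfs1 of that list, an endoplasmic reticulum protein, showed a log2 fold change of 0.51 (SE 0.21). The median of the 29 was -0.06 without E1 library 1, -0.09 without KI-96 library 3, -0.12 without KI-96 library 4 and -0.32 without KI-96 library 2. The 13 striosome and matrix genes had a median of 0.06.

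Of 18 striatal interneuron markers 11 were positive and 7 negative (median 0.15). Tacr1, the substance P receptor of cholinergic and other interneurons, ran from 24.7 to 27.8 CPM in E1 and 27.7 to 39.4 CPM in KI-96 (log2 fold change 0.37, SE 0.14), and Slc18a3, the vesicular acetylcholine transporter, had a log2 fold change of 0.59 (SE 0.25). Vip, a peptide of cortical interneurons, was at 12.0 and 9.77 CPM in E1 libraries 2 and 3 and at 0.382 to 1.57 CPM in the other 6. Npy and Sst, picked with their values in view, were lower on average. Npy ran from 40.89 to 62.98 CPM in E1 and 5.07 to 40.16 CPM in KI-96 (log2 fold change -1.09, SE 0.50), without overlap. Sst had a log2 fold change of -0.78 (SE 0.45), with overlapping groups. KI-96 library 3 was lowest for both. The interneuron median was 0.00 without KI-96 library 2, 0.05 without KI-96 library 1, 0.24 without E1 library 4 and 0.27 without KI-96 library 3.

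**Figure D4:**
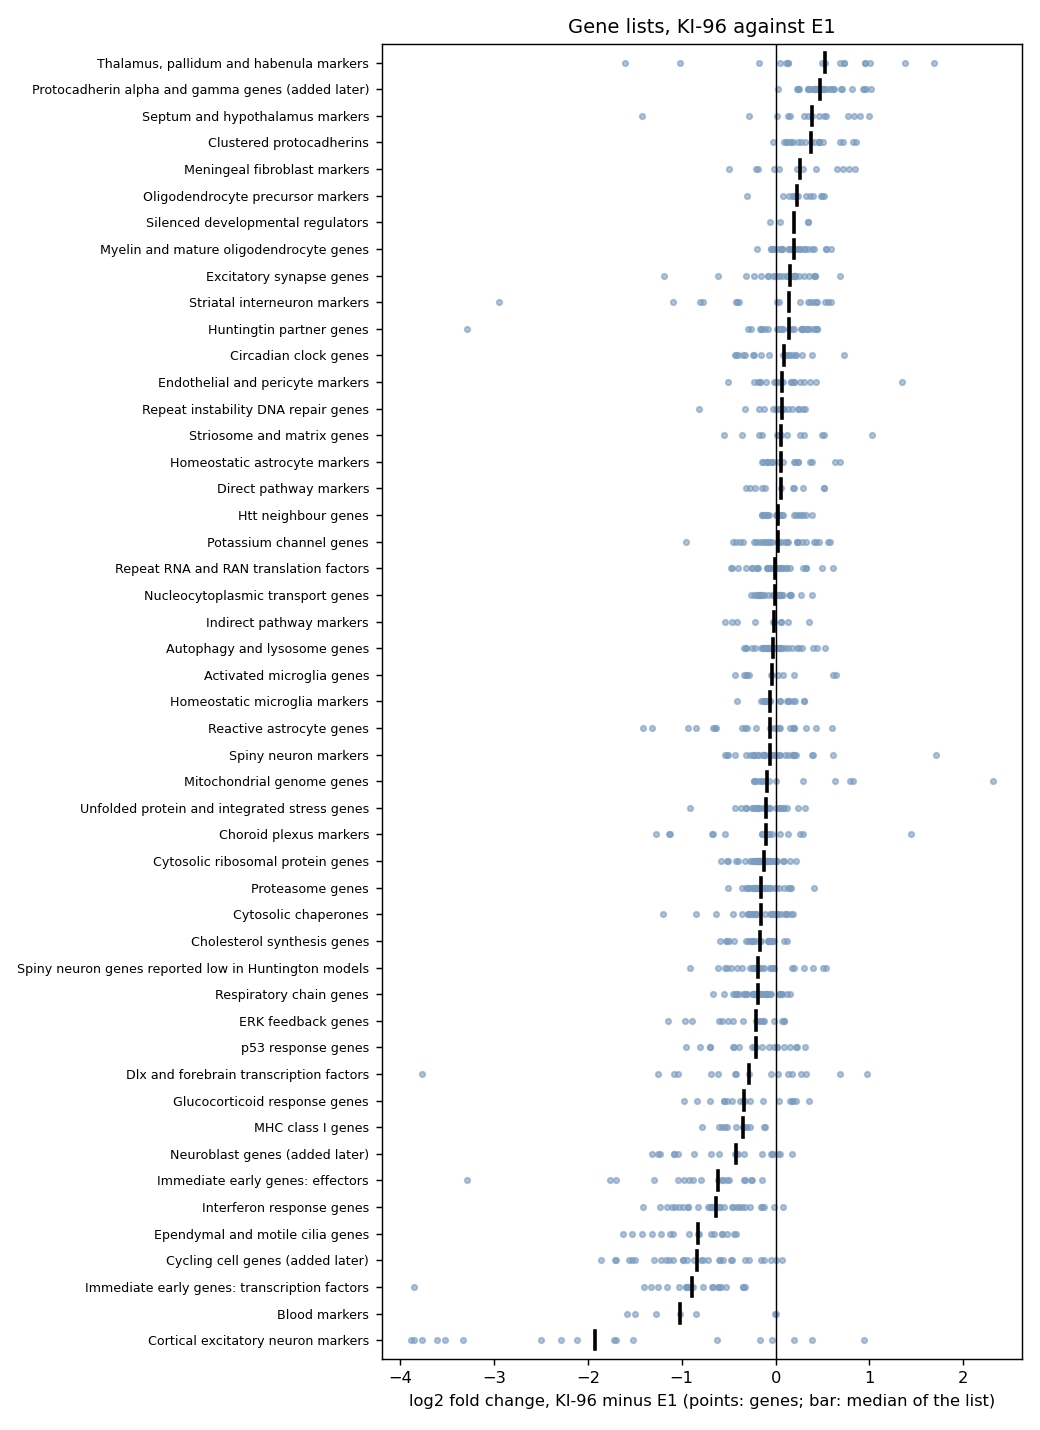
Log2 fold changes of KI-96 minus E1 (horizontal axis) of the tested members of each gene list, 1 point per gene, with a bar at the list's median. Cortical excitatory neuron markers have the lowest median, -1.92, and markers of thalamus, pallidum and habenula the highest, 0.53.

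Markers of neighbouring tissue differed between libraries. Slc17a7, the vesicular glutamate transporter of cortical neurons, was at 9.72, 913, 596 and 20.03 CPM in E1 libraries 1 to 4 and 5.96, 31.7, 23 and 90.9 CPM in KI-96 libraries 1 to 4. Only E1 libraries 2 and 3 were high among the 8, and in the series' other group WT ran from 11.6 to 814 CPM. Of 18 cortical markers 15 were negative (median -1.92). Tbr1, a transcription factor of deep cortical layers, showed a log2 fold change of -3.77 (SE 1.20) and Fezf2, which specifies their projection neurons, -2.12 (SE 0.62). The median was -1.25 without E1 library 2 and 0.58 without E1 libraries 2 and 3. Markers of thalamus, pallidum and habenula had a median of 0.53 (14 of 17 positive). Tcf7l2, a Wnt effector that marks thalamus and habenula, was at 39.0 CPM in KI-96 library 4 and 25.7 CPM in KI-96 library 3 and at 5.95 to 9.70 CPM in the other 6. Rora, a nuclear receptor of thalamic neurons and of the clock, did not overlap, at 43.4, 50.98, 47.8 and 55.1 CPM in E1 libraries 1 to 4 and 65.7, 55.9, 109 and 96.4 CPM in KI-96 libraries 1 to 4 (log2 fold change 0.73, SE 0.20). KI-96 libraries 3 and 4 were again the highest. Without KI-96 library 4 the list's median was 0.23. Septum and hypothalamus markers had a median of 0.39 (13 of 15 positive), with Zic1, a factor of septal neurons, at 74.5 CPM in KI-96 library 4 and 16.5 to 37.4 CPM in the other 7. Without that library the median was 0.19.

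Ependymal cells line the ventricle beside the striatum and carry motile cilia. All 17 of their genes tested had negative fold changes (median -0.83), 11 with an unadjusted p under 0.05. None of the 17 was without overlap, and 0 were called by edgeR or DESeq2. Among all genes, 4.14% were lower at that p and 2.49% were lower without overlap. Rsph1, a radial spoke protein of the cilium, was at 11.8, 5.33, 10.7 and 9.54 CPM in E1 libraries 1 to 4 and 5.45, 4.14, 3.92 and 6.15 CPM in KI-96 libraries 1 to 4 (log2 fold change -0.93, SE 0.26). E1 library 2 lay within the KI-96 range and the other 3 E1 libraries lay above it. Tekt1, a filament of the ciliary axoneme, was at 5.01, 1.46, 3.24 and 4.51 CPM in E1 libraries 1 to 4 and 0.944, 0.92, 1.20 and 2.12 CPM in KI-96 libraries 1 to 4 (log2 fold change -1.43, SE 0.42), with the same exception. Ccdc153, a coiled-coil protein that marks ependyma, showed a log2 fold change of -1.32 (SE 0.45), and Foxj1, the master factor of motile cilia, -0.42 (SE 0.31). The summed CPM of the 17 was 66.5 to 165 in E1 and 60.1 to 90.4 in KI-96, with 0 members at 0. Without E1 library 2 the median was -1.07, and without E1 libraries 2 and 3 it was -1.11. Choroid plexus markers had a median of -0.11 (11 of 16 negative), with Lbp, a lipopolysaccharide-binding protein, at a log2 fold change of -1.14 (SE 0.42) and Calml4, a calmodulin-like protein, at a log2 fold change of -1.27 (SE 0.48). The choroid plexus median was 0.03 without KI-96 library 1, -0.02 without E1 library 3, -0.05 without KI-96 library 3, -0.07 without E1 library 1, -0.37 without E1 library 2 and -0.39 without KI-96 library 4.

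Interferon response genes are induced when a cell senses viral or double-stranded RNA. Of 30 tested, 29 had negative fold changes (median -0.64), 0 with an unadjusted p under 0.05. Rsad2, the antiviral enzyme viperin, was at 10.8, 1.91, 1.01 and 2.10 CPM in E1 libraries 1 to 4 and 1.09, 1.18, 2.07 and 2.87 CPM in KI-96 libraries 1 to 4. E1 library 1 was the highest, and the other 7 libraries ran from 1.01 to 2.87 CPM. Bst2, which tethers viruses to the cell surface, was at 18.1, 3.98, 3.13 and 3.62 CPM in E1 libraries 1 to 4 and 3.34, 2.76, 2.45 and 6.44 CPM in KI-96 libraries 1 to 4, again highest in E1 library 1. The mean log2 CPM of the list was 3.65 in that library, between 1.25 and 1.89 in E1 libraries 2 to 4 and between 1.42 and 2.42 in KI-96. Without E1 library 1 the median was 0.17, with 6 of 30 negative. All 13 genes of MHC class I presentation were negative (median -0.35) and the median was 0.03 without E1 library 1, -0.53 without E1 library 4, -0.57 without KI-96 library 4 and -0.64 without E1 library 3. H2-T23, a nonclassical class I molecule, showed a log2 fold change of -0.61 (SE 0.25), and Tapbp, which loads peptide onto class I, -0.34 (SE 0.16).

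**Figure D5:**
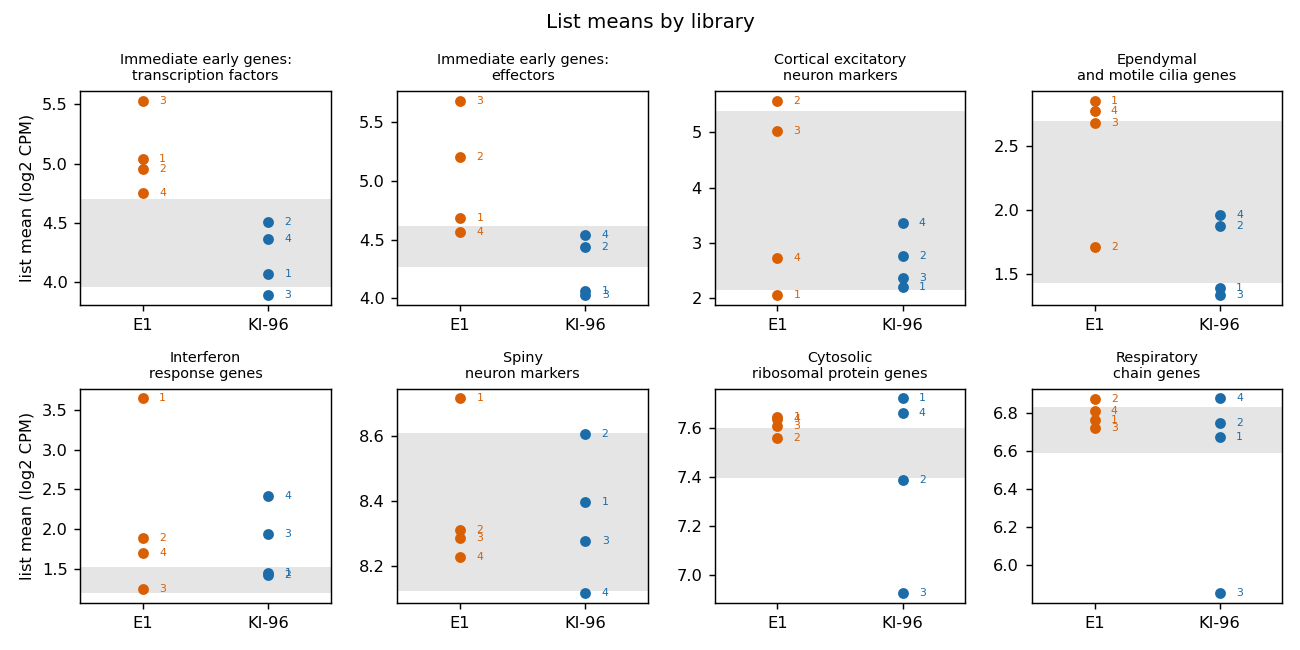
Mean log2 CPM (vertical axis, each panel with its own range that does not start at 0) of 8 gene lists in the E1 and KI-96 libraries, each point a library with its number, and the grey band the range of the 7 WT libraries. E1 library 3 is highest for both immediate early lists, E1 libraries 2 and 3 for cortical markers, E1 library 1 for interferon genes, and KI-96 library 3 is lowest for ribosomal and respiratory chain genes.

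Glial lists differed little. Of 14 oligodendrocyte precursor markers 13 were positive (median 0.23, and 0.40 without E1 library 4). Cspg4, the NG2 proteoglycan, was at 18.3, 20.5, 23.6 and 22.5 CPM in E1 libraries 1 to 4 and 30.7, 26.4, 36.7 and 27.3 CPM in KI-96 libraries 1 to 4 (log2 fold change 0.51, SE 0.14), without overlap. Pdgfra, the growth factor receptor of these cells, was at 29.7, 38.4, 46.2 and 46.5 CPM in E1 libraries 1 to 4 and 66.2, 49.95, 60.2 and 48.5 CPM in KI-96 libraries 1 to 4 (log2 fold change 0.48, SE 0.16). It did not overlap, and E1 library 1 was the lowest. Of 26 myelin genes 21 were positive (median 0.19), and the value for Mbp, myelin basic protein, was 0.19 (SE 0.31) as a log2 fold change. Mbp was at 3583 and 3020 CPM in E1 libraries 2 and 3 and at 3381 to 7572 CPM in the other 6. Without those 2 the myelin median was -0.21. It was 0.07 without E1 library 2, 0.02 without E1 library 3, 0.07 without KI-96 library 4, 0.33 without KI-96 library 3 and 0.48 without E1 library 4.

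Homeostatic astrocyte markers had a median of 0.05 (10 of 18 positive). Slc4a4, a bicarbonate transporter, had a log2 fold change of 0.37 (SE 0.14). The reactive astrocyte list had a median of -0.06 (13 of 23 negative); B3gnt5, a glycosyltransferase, had a log2 fold change of -1.31 (SE 0.42), Vim, an intermediate filament of astrocytes and ependyma, -0.64 (SE 0.26), and Gfap, the astrocyte filament, 0.60 (SE 0.41). Microglia markers had medians of -0.06 for the 19 homeostatic genes, 10 of them negative, and -0.04 for the 12 activated genes. Cx3cr1, the fractalkine receptor, ran from 52.3 to 62.4 CPM in E1 and 62.5 to 75.7 CPM in KI-96 (log2 fold change 0.31, SE 0.11), without overlap, and Csf1r, the receptor microglia need to survive, had a log2 fold change of 0.30 (SE 0.13).

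Vessel markers had a median of 0.07 (13 of 20 positive), with Myh11 described above and Abcc9, a potassium channel subunit of pericytes, at a log2 fold change of 0.43 (SE 0.17). Meningeal fibroblast markers had a median of 0.26 (8 of 12 positive), with the collagens Col1a1 at a log2 fold change of 0.72 (SE 0.26) and Col3a1 at a log2 fold change of 0.85 (SE 0.32). The fibroblast median was 0.11 without E1 library 2, 0.15 without E1 library 1, 0.16 without KI-96 library 4, 0.46 without E1 library 3 and 0.50 without E1 library 4. Blood markers were mostly negative (6 of 7, median -1.02). Hbb-bs, a beta globin, was at 89.4, 249.5, 31.2 and 154 CPM in E1 libraries 1 to 4 and 46.4, 43.05, 29.8 and 66.8 CPM in KI-96 libraries 1 to 4 (log2 fold change -1.49, SE 0.54). E1 library 3 lay within the KI-96 range and the other 3 E1 libraries lay above it. Without E1 library 2 the median of the blood list was -0.66.

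Several lists of protein quality control and energy metabolism were lowest in KI-96 library 3. Proteasome genes had a median of -0.15 (25 of 31 negative). Psma4, a subunit of the core particle, was at 58.7, 64.9, 58.8 and 58.6 CPM in E1 libraries 1 to 4 and 44.3, 45.6, 26.9 and 52.2 CPM in KI-96 libraries 1 to 4 (log2 fold change -0.51, SE 0.18). The groups did not overlap, and KI-96 library 3 was lowest. Psmc6, an ATPase of the cap, did not overlap either (log2 fold change -0.32, SE 0.11). Cytosolic chaperones had a median of -0.16 (19 of 28 negative), with the inducible heat shock protein Hspa1b at a log2 fold change of -1.20 (SE 0.50) and the cochaperone Dnajb5 at a log2 fold change of -0.64 (SE 0.24). Unfolded protein and integrated stress genes had a median of -0.10 (21 of 29 negative), with Trib3, a stress-induced pseudokinase, at a log2 fold change of -0.91 (SE 0.41). The median of that list was -0.04 without E1 library 3, -0.06 without KI-96 library 3, -0.16 without KI-96 library 4, -0.18 without E1 library 4 and -0.20 without KI-96 library 2.

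Respiratory chain genes had a median of -0.19 (33 of 40 negative) and cytosolic ribosomal protein genes -0.13 (41 of 49 negative). Their mean log2 CPM in KI-96 library 3 was 5.85 and 6.93, against 6.67 to 6.88 and 7.39 to 7.72 in the other 7 libraries. Without KI-96 library 3 these 2 medians were -0.01 and -0.00, that of the proteasome -0.04 and that of the chaperones -0.04. The ribosomal median was -0.26 without KI-96 library 1, and without KI-96 library 4 the respiratory chain median was -0.31 and the ribosomal one -0.20. Uqcrb, a subunit of complex III, showed a log2 fold change of -0.55 (SE 0.24) and Rps27, a protein of the small ribosomal subunit, -0.58 (SE 0.22). Among genes of the mitochondrial genome, mt-Nd4l, a small subunit of complex I, was at 0.563, 0.224, 0.478 and 0.262 CPM in E1 libraries 1 to 4 and 3.63, 2.89, 0.872 and 0.54 CPM in KI-96 libraries 1 to 4 (log2 fold change 2.32, SE 0.63). KI-96 libraries 1 and 2 were the highest of the 8 and KI-96 library 4 lay within the E1 range. The mitochondrial list as a whole had a median of -0.09. Autophagy and lysosome genes had a median of -0.03, with Npc1, the lysosomal cholesterol exporter, at a log2 fold change of 0.53 (SE 0.16).

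Cholesterol synthesis genes, which the factor SREBP2 controls together, had negative fold changes in 23 of 25 (median -0.17). Of the 25, 6 were lower at an unadjusted p under 0.05 and 4 were lower without overlap. These shares were 4.14% and 2.49% among all genes tested. Idi1, an isomerase of the isoprenoid steps, was at 11.8, 15.2, 15.7 and 11.7 CPM in E1 libraries 1 to 4 and 7.99, 10.1, 8.39 and 9.48 CPM in KI-96 libraries 1 to 4 (log2 fold change -0.59, SE 0.16). All KI-96 libraries lay below all E1 libraries and below the WT range of 11.2 to 15.6 CPM. Msmo1, a sterol demethylase, was at 64.5, 84.2, 70.9 and 64.01 CPM in E1 libraries 1 to 4 and 45.04, 57.2, 38.6 and 55.2 CPM in KI-96 libraries 1 to 4 (log2 fold change -0.53, SE 0.15), also without overlap. Hmgcs1, an early synthase of the pathway, had -0.50 (SE 0.17) as its log2 fold change. E1 library 2 or 3 was highest for each of these 3 genes, and without both the median of the list was -0.10. Without KI-96 library 3 as well it was 0.02.

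The p53 response genes had a median of -0.21 (14 of 21 negative), and Sesn1, a stress-induced inhibitor of mTORC1, did not overlap, at 53.8 to 62.7 CPM in E1 and 34.8 to 47.6 CPM in KI-96 (log2 fold change -0.44, SE 0.12). The p53 median was -0.11 without E1 library 3 and -0.12 without KI-96 library 2. Glucocorticoid response genes had a median of -0.34 (12 of 18 negative), with Map3k6, a stress kinase, at a log2 fold change of -0.97 (SE 0.27) and Tsc22d3, the leucine zipper induced by glucocorticoids, at a log2 fold change of -0.56 (SE 0.20). Without E1 library 4 that median was -0.15. Circadian clock genes had a median of 0.09, with the activator Arntl at a log2 fold change of -0.35 (SE 0.13), without overlap. The 17 Dlx and forebrain transcription factors had a median of -0.29 (10 negative): Zfhx3, a zinc finger homeobox factor, was highest in KI-96 library 3 (log2 fold change 0.98, SE 0.27). Their median was -0.12 without KI-96 library 1 and -0.17 without E1 library 3.

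Excitatory synapse genes had a median of 0.16 (19 of 28 positive). Grin2d, an NMDA receptor subunit, had a log2 fold change of 0.69 (SE 0.25). The synapse median was 0.02 without KI-96 library 3, 0.08 without E1 library 4 and 0.25 without KI-96 library 4. Potassium channel genes had a median of 0.02 (16 of 30 positive), with Kcnq3, a subunit of the M current, at a log2 fold change of 0.58 (SE 0.20). Of the 21 Pcdhb genes of the clustered protocadherins 20 were positive (median 0.38), 7 with an unadjusted p under 0.05. Only 1, Pcdhb11, was without overlap (log2 fold change 0.47, SE 0.17). Among all genes tested 4.88% were higher at that p and 2.35% were higher without overlap. The Pcdhb median was 0.30 without KI-96 library 1 and 0.50 without KI-96 library 4. For this cluster KI-96 library 4, at a mean log2 CPM of 2.784, lay within the E1 range of 2.783 to 2.919. Members of such a cluster are near-identical copies in part, and how the authors' counting treated reads that fit several of them is not given.

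Of 29 genes of huntingtin and its partners 21 were positive (median 0.14). Hip1r, an endocytic adaptor related to huntingtin-interacting protein, was at 90.2, 94.4, 85.8 and 105 CPM in E1 libraries 1 to 4 and 118, 134, 135 and 118 CPM in KI-96 libraries 1 to 4 (log2 fold change 0.43, SE 0.11, DESeq2 adjusted p 0.0849). The groups did not overlap, and KI-96 libraries 1 and 4 lay within the WT range of 93.7 to 125 CPM. Hip1, its relative, did not overlap either (log2 fold change 0.29, SE 0.12). The 24 neighbours of Htt on chromosome 5 had a median of 0.03, with Adra2c, an adrenergic receptor, at a log2 fold change of 0.32 (SE 0.13) and Mxd4, a repressor of the Myc network, at a log2 fold change of 0.30 (SE 0.13).

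The lists nearest to repeat biology had medians close to 0. The 31 factors tied to repeat RNA and repeat-associated translation had -0.01 (14 positive, 17 negative). Adar, which edits double-stranded RNA, was at 133, 130.5, 126 and 128 CPM in E1 libraries 1 to 4 and 159.8, 163, 187 and 137 CPM in KI-96 libraries 1 to 4 (log2 fold change 0.32, SE 0.12), without overlap. The lowest KI-96 library, library 4, was near the E1 range. Mcts1, a translation reinitiation factor, showed a log2 fold change of -0.48 (SE 0.18), and Srsf1, a splicing factor that also exports repeat RNA, -0.40 (SE 0.15). The 19 DNA repair genes of repeat instability had a median of 0.06 (14 positive), with 0 at an unadjusted p under 0.05. Nucleocytoplasmic transport genes had a median of -0.01 (13 of 29 positive), with Nup214, a pore protein, at a log2 fold change of 0.38 (SE 0.15). Of 27 silenced developmental regulators 4 had enough counts to be tested (median 0.20, and 0.06 without E1 library 2, 0.06 without KI-96 library 4 and -0.01 without KI-96 library 3).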

How the data were processed

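RNA of mouse striatum was measured by sequencing. The authors deposited whole-number read counts per gene, not normalised, with 1 column per mouse. Tools named in the submitters' processing notes, without roles, are DESeq2 1.24.0, HTSeq and STAR, with GRCm38 as build. Strand use and annotation release were not stated, so antisense, overlapping and near-identical genes are uncertain. Of 54232 identifiers, 54165 matched GENCODE on GRCm38 without their version and 52566 with it.

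Counts of the 4 KI-96 and 4 E1 libraries were tested with edgeR 4.0.16 (R 4.3.3): default filter by group (minimum count 10, which left 17157 genes), trimmed mean of M-values scaling over all 15 libraries, robust quasi-likelihood fit on the 8 libraries, two-sided, Benjamini-Hochberg over all genes, threshold 0.05. CPM use these scaled library sizes, and log2 CPM a prior count of 2. Intervals are 95%. Each library has its own mouse number, so replicates are separate animals, and the numbers 1 to 4 do not pair them. Alternatives were DESeq2 1.42.0, limma-voom 3.58.1, a fit on all 15 libraries, other scalings and filters, a block, a covariate and left-out libraries. The script was tested on simulated counts.

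Named were Htt, in each direction the 10 genes with the smallest unadjusted p (none passed, mean at least 1 CPM, no predicted genes), and up to 4 members per list with the smallest p. Other genes are markers that define a tissue or were picked with their values in view. The comparison and the lists were chosen with earlier results of these data known, so a list's direction is not independent evidence. Lists are given by counts and medians, without a test. Values of some genes are not reported here.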

Additional observations from a re-analysis of the deposited data

Results flagged for a closer look

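In groups of 4 libraries, 1 library was set apart where its gap to the nearest other exceeded Dixon's 95% critical share of the group's range; chance does this in about 1 in 20 groups, and 14 of 168 groups tested did. Within E1, library 1 stood apart for Rsad2 (10.75 CPM, others 1.01 to 2.10), for spiny neuron markers (mean log2 CPM 8.71, others 8.23 to 8.31) and for thalamus, pallidum and habenula markers (3.05, others 3.71 to 3.78). E1 library 2 stood apart for ependymal genes (1.71, others 2.68 to 2.86) and choroid plexus markers (1.12, others 2.14 to 2.28), and E1 library 3 for cytosolic chaperones (6.78, others 6.49 to 6.53). Within KI-96, library 3 was low for interneuron markers (3.06, others 3.89 to 3.96), activated microglia genes (4.37, others 5.05 to 5.16), proteasome genes (5.78, others 6.22 to 6.24) and autophagy and lysosome genes (6.13, others 6.43 to 6.46). KI-96 library 4 was high for Fos (16.3 CPM, others 7.70 to 8.94), MHC class I genes (3.37, others 2.75 to 2.84) and septum and hypothalamus markers (3.33, others 2.47 to 2.62), and low for Myh11 (4.28 CPM, others 6.57 to 6.87).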

How the results depend on the processing

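The count of edgeR calls stayed at 0 in both directions under every setting of scaling, filter, covariate, 15-library fit, limma-voom and removal of libraries, with these exceptions. DESeq2 called 14 higher and 27 lower. Leaving out 1 library in turn gave 0 to 10 genes higher, with 10 without E1 replicate 4 and 1 without KI-96 replicate 2, and 0 lower throughout. With the replicate number as a block both counts were 0 (smallest adjusted p 0.446, 1809 genes at an unadjusted p under 0.05), and Htt was 0.38; same-numbered libraries correlated at -0.02 to 0.20 and 4 of 8 correlated best with their own number. Htt ran from 0.25 to 0.51 on leaving out 1 library, and DESeq2 called 20 of the named genes that edgeR did not. Fold changes reversed as follows, causes not tested. Without E1 libraries 2 and 3, and then also without KI-96 library 3 (chosen after the data were seen), they were 0.63 and 0.73 for Nr4a2, 0.26 and 0.45 for Bdnf, 0.32 and 0.35 for Ptgs2, 1.36 and 1.54 for Slc17a7, 0.19 and 0.39 for Tbr1, and -0.20 and -0.029 for Mbp. With the cortical marker covariate Slc17a7 was 0.48. On leaving out 1 library Drd2 ran from -0.21 to 0.15, Rsad2 from -1.43 to 0.13 and Bst2 from -1.34 to 0.08. A covariate of Y-linked genes was not run, since Ddx3y, Kdm5d, Eif2s3y and Uty had at most 2 counts in all in any of the 8 libraries. Of 49 lists 16 had a median that changed sign on leaving out 1 library. With 4 mice a group, a count of 0 does not show that the genotypes are alike.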

Other observations

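Genes of dividing cells had mostly negative fold changes. Their list was chosen after the values were seen and is a description with no test. Of 30 genes of the cell cycle and DNA synthesis 29 had negative fold changes (median -0.83), 16 with an unadjusted p under 0.05. Of the 30, 5 were without overlap, DESeq2 called 4 and edgeR 0. The shares of all genes lower in KI-96 were 4.14% at that p, 2.49% without overlap and 0.158% by DESeq2. E1 library 2, with a mean log2 CPM of 1.04, lay within the KI-96 range of 0.653 to 1.11. Hmgb2, a chromatin protein of proliferating cells, was at 19.3, 11.2, 21.0 and 14.2 CPM in E1 libraries 1 to 4 and at 8.79, 10.1, 5.34 and 6.69 CPM in KI-96 libraries 1 to 4. The groups did not overlap, and the log2 fold change was -1.09 (SE 0.25, DESeq2 adjusted p = 0.0258). Cenpa, the centromere histone, had -1.53 (SE 0.34) and Cdca7, a regulator of DNA methylation in S phase, -1.13 (SE 0.26). Of 20 genes of neuroblasts, the migrating young neurons of the subventricular zone beside the striatum, 17 were negative (median -0.43), among them Dlx1. Ependymal genes, from the same ventricular wall, had negative fold changes in 17 of 17 (summed CPM 66.5 to 165 in E1 and 60.1 to 90.4 in KI-96, 0 members at 0), and their part in these values was not tested. Without E1 libraries 2 and 3 the medians were -0.93 for the dividing cell list and -0.29 for the neuroblast list, and without E1 library 3 alone the latter was -0.28.

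Of 33 protocadherin alpha and gamma genes, also listed after their values were seen, 33 had positive fold changes (median 0.48), 12 with an unadjusted p under 0.05 and 4 without overlap. Among all genes tested these shares were 4.88% and 2.35%. KI-96 library 4, at a mean log2 CPM of 2.46, lay within the E1 range of 2.32 to 2.75. The alpha genes overlap in the annotation, as do the gamma genes, and how shared reads were counted is not given, so they may not be separate observations. The median was 0.32 without KI-96 library 3 and 0.65 without KI-96 library 4.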
